A study of Mus musculus with 6 samples.

Results

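The pre-B cell receptor and V(D)J recombination genes are 10 rows of the deposited gene table, out of 43346 rows in all, chosen by symbol for their known roles in B cell development, with earlier results of these data known: Igll1, Vpreb1, Vpreb2, Vpreb3, Cd79a, Cd79b, Blnk, Rag1, Rag2 and Dntt. They were measured by RNA-seq in 6 bulk libraries of mouse femur, 3 from radiated and 3 from non-radiated bone, all harvested on day 21. The animals were C57BL/6 mice, an inbred laboratory strain, aged 4 months and with no engineered allele named. In the radiated group the right femur had received 24 Gy on day 0 as 1 image-guided X-ray exposure at 6.6 Gy per minute, aimed at 5 mm of the distal metaphysis, the trabecular end of the shaft near the knee. The non-radiated group is the opposite, left femur, so all 6 libraries come from animals exposed in the right leg, and none comes from an unexposed animal. Day 21 was chosen by the study as a point ahead of the bone loss it had seen on day 28.

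V(D)J recombination is the cutting and rejoining of gene segments by which developing lymphocytes assemble antigen receptor genes. Rag1 and Rag2 form the enzyme that makes the cuts, and Dntt (terminal deoxynucleotidyl transferase, TdT) adds bases without a template at the joints. In B cells the heavy chain is assembled first and is displayed with a surrogate light chain, made of the products of Igll1 (lambda5) and a VpreB gene, together with the signalling pair Cd79a and Cd79b. That complex is the pre-B cell receptor, whose signal passes through the adaptor Blnk and marks the step from pro-B to pre-B cell. In adult mice these steps take place in the bone marrow, and the labels do not mention flushing of the marrow before the bone was homogenized.

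The libraries held 34034251, 34684447 and 40993415 gene counts in the non-radiated group and 35919292, 48708383 and 41378719 in the radiated group. In non-radiated library 2, 32.9% of all counts fell on the single row AY036118, against 0.321% to 5.61% in the other 5. CPM values here are counts scaled to the library's size with TMM, which lowers the effective size of that library (factor 0.722, against 1.03 to 1.10). As a check of the tissue, Col1a1, the main collagen of bone, averaged 5233 CPM in non-radiated and 3419 CPM in radiated libraries. The labels do not say which animal gave which library, so the p-values measure only the spread between these samples. In bulk RNA, more cells of a type and more RNA per cell cannot be told apart.

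All 10 genes were higher in radiated bone, and 9 of them passed the test. Their log2 fold changes ran from 0.60 to 1.12 with a median of 0.76. Vpreb1 and Igll1, the pair that makes the surrogate light chain, had the highest values and Dntt the lowest. Across the 18757 genes that could be tested the median was 0.00, 4.56% were called higher and 3.24% were called lower (edgeR's quasi-likelihood test, Benjamini-Hochberg adjusted p under 0.05). In all 10 genes each radiated library lay above each non-radiated library, which 14.4% of tested genes did. The 10 genes were chosen with earlier results of these data known, so these shares are not an independent test. The CPM of the 10 genes summed to 368, 325 and 341 in non-radiated libraries 1, 2 and 3, and to 592, 525 and 650 in radiated libraries 1, 2 and 3.

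The promoters of the genes that moved together are shown here for the elements that early B cell factors are known to bind. RefSeq (build GRCm38.p6) gave a window from 250 bases before to 50 after the start for 9 of the 10 genes, all but Cd79b. The starts are those of RefSeq. In Vpreb1 and Vpreb3 they lie inside the gene's deposited row, which reaches farther upstream. The matches found below in Vpreb1 and Blnk fall within exons of those genes in the GENCODE M21 annotation and are not printed. Both strands were searched for 3 motifs: the E-box CAGGTG, bound by E proteins such as the product of Tcf3, the palindrome CCCNNGGG, the core of the EBF1 motif, and the octamer ATTTGCAT, bound by Oct factors together with the product of Pou2af1. No match of 1 motif overlapped a match of another in these windows. The E-box was found in 6 of the 9 windows (Igll1, Vpreb1, Vpreb2, Cd79a, Rag1 and Blnk), and 20.2% of 32851 RefSeq promoter windows of the same length hold it. The E-boxes of Vpreb1 and Vpreb2 lie at the same place in the near-copied upstream sequence given below, so they are not independent matches. The octamer was found in 2 of the 9 (Vpreb3 and Blnk) and in 1.74% of all windows, and the EBF palindrome in 1 of the 9 (Igll1) and in 13.7% of all windows. A match is a run of letters, and nothing in these data shows binding there. The stretches below are upstream of the start, written 5′ to 3′ on the gene's strand with the match in capitals, in the Igll1 E-box as its reverse complement. They come from chr16:16863986-16864018 (minus strand) and chr16:16864184-16864235 (minus strand) for Igll1, chr10:75948230-75948287 (plus strand) for Vpreb3, chr7:24897318-24897373 (plus strand) for Cd79a and chr2:101649637-101649692 (minus strand) for Rag1.
Igll1, E-box: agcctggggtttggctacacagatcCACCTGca
Igll1, EBF palindrome: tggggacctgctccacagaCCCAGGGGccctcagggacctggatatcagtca
Vpreb3, octamer: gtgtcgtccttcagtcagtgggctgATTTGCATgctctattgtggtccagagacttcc
Cd79a, E-box: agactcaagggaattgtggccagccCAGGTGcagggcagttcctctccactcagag
Rag1, E-box: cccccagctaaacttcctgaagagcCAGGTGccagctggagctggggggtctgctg

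The first base of the E-box lay 8 bases before the start in Igll1, 154 before it in Cd79a and 135 before it in Rag1, and the octamer of Vpreb3 began 45 before it. Vpreb1 and Vpreb2 are near copies of each other, and their upstream sequence shows how near. The 106 bases below lie upstream of Vpreb2 at chr16:17980315-17980420 (plus strand, GRCm38.p6). They match the stretch upstream of the RefSeq start of Vpreb1 at 98.1% of positions. Capitals mark the 2 bases that differ from Vpreb1.
Vpreb2: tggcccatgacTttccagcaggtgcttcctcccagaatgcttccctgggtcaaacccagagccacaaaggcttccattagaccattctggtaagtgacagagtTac

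Igll1 (ENSMUSG00000075370, chromosome 16, 16860671 to 16863985 in the coordinates of the table, for which the submitters' processing notes name build mm10) encodes the constant-like part of the surrogate light chain, lambda5. Its level was 18.8, 16.4 and 17.4 CPM in non-radiated libraries 1, 2 and 3 and 38.9, 34.5 and 37.0 CPM in radiated libraries 1, 2 and 3. The lowest radiated library stood well above the highest non-radiated library, and the libraries within each group lay close together. Means were 17.5 ± 1.24 CPM (SD, n = 3) and 36.8 ± 2.22 CPM (SD, n = 3), a log2 fold change of 1.07 (SE 0.08, adjusted p 7.49e-05 by edgeR), or 2.10-fold. Between libraries of the same number the log2 differences were 1.05, 1.07 and 1.09. By p-value Igll1 ranked 66 among all genes tested, ahead of the other genes of the group.

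Vpreb1 (ENSMUSG00000059305, chromosome 16, 16868402 to 16870843) encodes the variable-like part that pairs with lambda5, and its row lies 4416 bases from Igll1. It was at 12.2, 10.3 and 11.5 CPM in the non-radiated libraries and at 23.7, 22.5 and 28.1 CPM in the radiated libraries, in the order 1, 2, 3. No libraries of the 2 groups overlapped. The log2 fold change of 1.12 (SE 0.11, adjusted p 0.000348 by edgeR), or 2.18-fold, had the highest value of the 10 genes. The difference from Igll1 was small against the errors of both.

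Vpreb2 (ENSMUSG00000059280, chromosome 16, 17980565 to 17981080) is the second VpreB gene and had the lowest CPM of the group. Its 6 libraries held 41, 41 and 45 counts without radiation and 86, 90 and 105 counts with it. These correspond to 1.12, 1.64 and 1.06 CPM and to 2.27, 1.69 and 2.35 CPM. Radiated library 2 was only just above non-radiated library 2, a log2 difference of 0.04, while the libraries numbered 1 and 3 differed by 1.01 and 1.14. The log2 fold change of 0.74 (SE 0.23) did not pass the test (adjusted p 0.0854 by edgeR). With both libraries numbered 2 left out, an alternative chosen after seeing the data, it was 1.08 (adjusted p 0.0271 by edgeR), and over the alternatives its adjusted p ran from 0.0271 to 0.244. The first listed transcripts of Vpreb1 and Vpreb2 are 97.4% identical over 759 aligned bases, and 32.8% of the 50-base windows of Vpreb2 occur unchanged in Vpreb1. How the counting treated reads that fit both genes is not given in the sources used here, so the counts of this pair are uncertain.

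Vpreb3 (ENSMUSG00000000903, chromosome 10, 75943057 to 75949657) encodes a VpreB-like protein of early B cells. It shares no 50-base window with Vpreb1. Its level was 32.9, 28.4 and 29.2 CPM in the non-radiated libraries and 51.9, 53.8 and 66.8 CPM in the radiated libraries. The groups were apart, with radiated library 3 the highest. The log2 fold change was 0.93 (SE 0.10, adjusted p 0.000885 by edgeR), or 1.91-fold.

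Cd79a and Cd79b encode Ig-alpha and Ig-beta, the pair that carries the signal of both the pre-B cell receptor and the later B cell receptor, so their RNA is also present in mature B cells. Cd79a (ENSMUSG00000003379, chromosome 7, 24897381 to 24902197) was at 46.0, 43.0 and 51.3 CPM in the non-radiated libraries and at 86.6, 73.6 and 77.6 CPM in the radiated libraries. Cd79b (ENSMUSG00000040592, chromosome 11, 106311341 to 106314762) was at 62.7, 68.7 and 62.0 CPM and at 110, 89.7 and 102 CPM in the same order. Radiated library 2 had the lowest radiated value of each, still above every non-radiated library. The log2 fold changes were 0.76 (SE 0.08, adjusted p 0.000785 by edgeR) for Cd79a and 0.64 (SE 0.08, adjusted p 0.00158 by edgeR) for Cd79b.

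Blnk (ENSMUSG00000061132, chromosome 19, 40928927 to 40994535) encodes the adaptor that links the receptor's kinase Syk to downstream enzymes. It was at 56.2, 49.8 and 54.1 CPM in the non-radiated libraries and at 86.1, 79.3 and 96.8 CPM in the radiated libraries. The groups did not overlap, and the log2 fold change was 0.71 (SE 0.08, adjusted p 0.000930 by edgeR), or 1.64-fold. Of the 10 genes Blnk lay closest to the group's mean profile over the 6 libraries, with a root mean square difference of 0.07 on the log2 scale, and Vpreb2 lay farthest at 0.23.

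Rag1 (ENSMUSG00000061311, chromosome 2, 101638282 to 101649501) encodes the catalytic subunit of the recombinase. Its level was 100, 75.7 and 85.6 CPM in the non-radiated libraries and 140, 119 and 185 CPM in the radiated libraries. The groups did not overlap, but the radiated libraries were spread widely, at 148 ± 33.5 CPM (SD, n = 3) against 87.1 ± 12.2 CPM (SD, n = 3). The log2 fold change was 0.76 (SE 0.15, adjusted p 0.0171 by edgeR). The call was lost without non-radiated library 2, at 0.66 (adjusted p 0.0773 by edgeR), and without non-radiated library 3, at 0.74 (adjusted p 0.0596 by edgeR). Over all 15 alternatives the adjusted p ran from 0.000111 to 0.0773.

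Rag2 (ENSMUSG00000032864, chromosome 2, 101624718 to 101632529), the partner subunit, lies 5752 bases from Rag1. It was at 6.80, 5.27 and 5.05 CPM in the non-radiated libraries and at 11.0, 9.23 and 13.4 CPM in the radiated libraries. Radiated library 3 was the highest for both Rag genes, and radiated library 2 was the lowest of the radiated group for both. The log2 fold change of Rag2 was 0.97 (SE 0.17, adjusted p 0.00801 by edgeR), or 1.96-fold. Both rows overlap the gene B230118H07Rik, whose exons share 80 of the 6608 exon bases of Rag1 and 208 of the 3424 of Rag2. B230118H07Rik itself had a log2 fold change of 0.05 (adjusted p 0.816 by edgeR).

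Dntt (ENSMUSG00000025014, chromosome 19, 41029275 to 41059523) encodes TdT, which in B cells is best known from the pro-B stage. It was at 30.9, 26.2 and 24.4 CPM in the non-radiated libraries and at 41.5, 41.0 and 41.0 CPM in the radiated libraries. The radiated libraries were nearly level with each other and all above the non-radiated libraries. Dntt had the lowest log2 fold change of the 10 genes, 0.60 (SE 0.09, adjusted p 0.00381 by edgeR), or 1.51-fold.

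**Figure D1:**
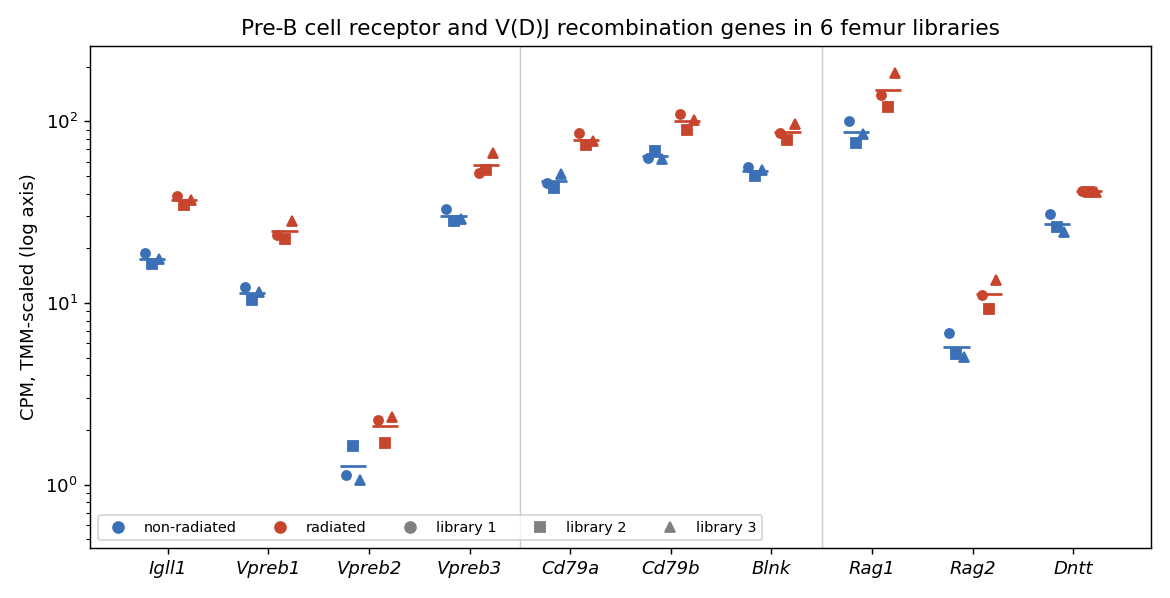
Level of each of the 10 genes in each of the 6 libraries, as TMM-scaled CPM on a log axis. Blue points are non-radiated and red points radiated libraries, the marker shape gives the library number, and bars are group means. In every gene the 3 red points lie above the 3 blue points, with the narrowest gap in Vpreb2, at 1.64 against 1.69 CPM.

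Levels were compared between genes only as CPM per kilobase of the gene length in the table. In the non-radiated libraries Cd79b was highest at 45.0 CPM per kilobase, followed by Vpreb3 at 35.1 and Cd79a at 32.1, whose libraries overlapped. Rag1 at 13.2 and Dntt at 12.8 overlapped, as did Vpreb1 at 10.2 with Blnk at 8.91, and Blnk with Igll1 at 8.10. Vpreb2 at 2.97 and Rag2 at 1.67 were lowest and apart from their neighbours in this order. In the radiated libraries Cd79b at 70.4 and Vpreb3 at 66.9 overlapped, ahead of Cd79a at 54.4. Next came Rag1 at 22.4 and Vpreb1 at 22.3, which overlapped, then Dntt at 19.3, then Igll1 at 17.0 and Blnk at 14.6, which overlapped, then Vpreb2 at 4.90 and Rag2 at 3.28. The order depends on the length used. With the length of the first listed GENCODE M21 transcript, Vpreb3 stood first at 48.2 CPM per kilobase in the non-radiated libraries, Blnk moved to the fourth place at 25.5 and Igll1 to the fifth at 20.2. By that length Vpreb2 and Rag2 were nearly equal in the non-radiated libraries, at 1.68 and 1.67. In the radiated libraries their order was reversed, with Vpreb2 at 2.77 and Rag2 at 3.28.

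Whether the genes changed by like amounts was read from the ratio of 2 genes' counts within a library, which no scaling of libraries can change. Of the 45 ratios among the 10 genes, 14 had no overlap between groups and 31 overlapped. With no group difference, 10% of ratios would be expected to have no overlap. The 45 ratios share the 10 genes and are not independent. None passed a test: 3 libraries against 3 cannot give a two-sided exact permutation p below 0.1 over 20 labelings, and the smallest Benjamini-Hochberg adjusted value over the 45 was 0.321. The ratios below were picked after their values were seen. Vpreb1 to Blnk was 0.218, 0.208 and 0.213 in the non-radiated libraries and 0.275, 0.284 and 0.291 in the radiated libraries, a log2 difference of 0.41 (SE 0.03). Igll1 to Dntt was 0.610, 0.626 and 0.711 and then 0.937, 0.842 and 0.903, a log2 difference of 0.46 (SE 0.08). Igll1 to Cd79a was 0.410, 0.381 and 0.339 and then 0.449, 0.469 and 0.478, a log2 difference of 0.31 (SE 0.08). In these 3 ratios the radiated libraries held more counts of Igll1 or Vpreb1 for each count of the other gene. Other ratios of the same genes overlapped between groups, among them Igll1 to Rag1, with a log2 difference of 0.32 (SE 0.18), Igll1 to Rag2 at 0.10 (SE 0.16), Igll1 to Vpreb3 at 0.15 (SE 0.13) and Vpreb1 to Rag2 at 0.15 (SE 0.12). Vpreb2 to Cd79a was at -0.03 (SE 0.29) and Vpreb2 to Blnk at 0.03 (SE 0.26), both with overlap.

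Within the surrogate light chain, Igll1 to Vpreb1 overlapped between groups, with a log2 difference of -0.05 (SE 0.10). Rag1 to Rag2 was 14.7, 14.4 and 16.9 in the non-radiated libraries and 12.6, 12.9 and 13.8 in the radiated libraries, a log2 difference of -0.22 (SE 0.08), with no overlap. Cd79a to Cd79b overlapped, with a log2 difference of 0.12 (SE 0.12).

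**Figure D2:**
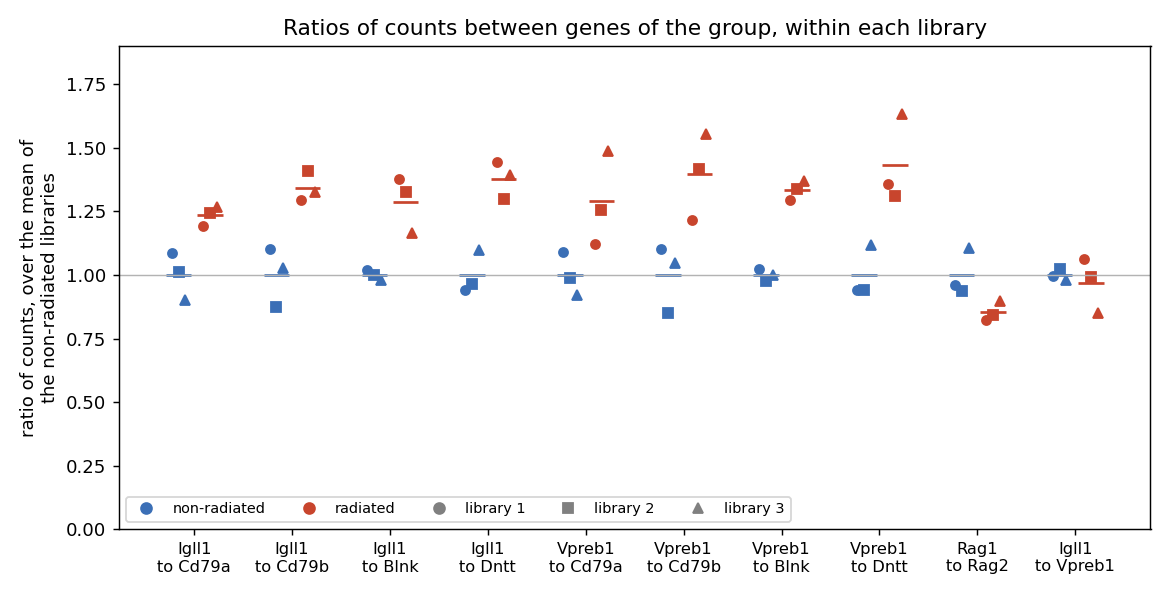
Ratio of counts between 2 genes of the group within each library, divided by the mean of the non-radiated libraries, on an axis from 0. Blue points are non-radiated and red points radiated libraries, marker shapes give the library number and bars are group means. The first 8 ratios sit higher in all radiated libraries, Rag1 to Rag2 sits lower, and Igll1 to Vpreb1 overlaps. The ratios shown were picked after their values were seen, and 31 of all 45 ratios overlapped between groups.

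The 10 genes lie on 6 chromosomes, and their nearest tested genes that do not overlap them were read on each side, by a rule chosen after the values were seen. Igll1 and Vpreb1, Rag1 and Rag2, and Blnk and Dntt are each other's neighbours, the last pair 34739 bases apart. Of the 14 neighbours outside the group, 3 were called higher, beside 4.56% of all tested genes. The other 11 were not called, with log2 fold changes from -0.25 to 0.46. Fgd4, on the far side of Igll1, was at -0.25 (SE 0.08), and Ppm1f, on the far side of Vpreb1, at 0.12 (SE 0.07). Traf6 beside Rag1 was at 0.10 (SE 0.07), Arhgef1 at 714 bases from Cd79a at 0.09 (SE 0.08), and Zfp518a beside Blnk at -0.17 (SE 0.08).

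The 3 neighbours that rose were Scn4a beside Cd79b, Tll2 beside Dntt and Gm10800 below Rag2. Scn4a, the sodium channel of skeletal muscle, had a log2 fold change of 1.18 (SE 0.25, adjusted p 0.0199 by edgeR). Tll2 was at 2.84 (SE 0.47, adjusted p 0.00672 by edgeR), with a mean of 0.441 CPM over all 6 libraries. Gm10800 was at 3.88 (SE 0.28, adjusted p 6.05e-05 by edgeR) and lies 2957416 bases from Rag2. Vpreb1 also overlaps Top3b on the opposite strand, with 108 shared exon bases, and Top3b was at 0.01 (adjusted p 0.927 by edgeR). Whether the counting used strand is not given in the sources used here.

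**Figure D3:**
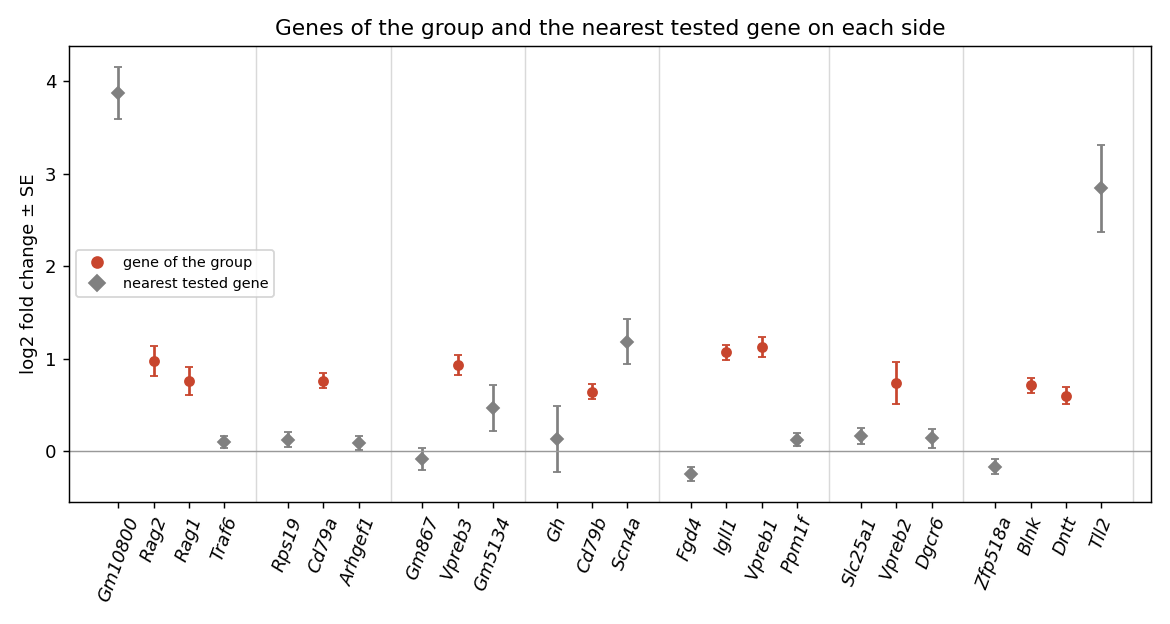
Log2 fold change, radiated over non-radiated, with its standard error, for the 10 genes (red circles) and the nearest tested gene on each side (grey diamonds), in chromosome order within each panel. Most grey points lie near 0, from -0.25 to 0.46, while Gm10800, Scn4a and Tll2 lie at 3.88, 1.18 and 2.84.

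Recombination needs general repair proteins once the recombinase has cut. Of 13 genes for end joining and cofactors, 3 rose, none fell, and the median log2 fold change was 0.05. They were Polm, a DNA polymerase that acts at light chain joints, at 0.62 (SE 0.10, adjusted p 0.00552 by edgeR), Xrcc6, a subunit of the Ku end-binding complex, at 0.32 (SE 0.07, adjusted p 0.0247 by edgeR), and Lig4, the ligase that seals the joint, at 0.51 (SE 0.12, adjusted p 0.0301 by edgeR). The other 10 lay between -0.11 and 0.24. The count fell to 1 when any of non-radiated libraries 1, 2 or 3 or radiated libraries 1 or 3 was left out. These counts stand beside 4.56% of all tested genes called higher, and the gap between this list and the recombinase genes was not tested. This list and those that follow were also chosen with earlier results of these data known.

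Of 19 genes of (pre-)B cell receptor signalling, 6 rose, 1 fell and the median was 0.15. Blk, a Src-family kinase of B cells, went from 33.8, 30.3 and 35.4 CPM to 56.8, 51.8 and 62.9 CPM, a log2 fold change of 0.78 (SE 0.09, adjusted p 0.000908 by edgeR). Pik3ap1, an adaptor for phosphoinositide 3-kinase, rose by 0.44 (SE 0.05, adjusted p 0.00150 by edgeR), and Cd22, an inhibitory co-receptor, by 0.66 (SE 0.08, adjusted p 0.00191 by edgeR). Dapp1, an adaptor downstream of phosphoinositide 3-kinase, fell by 0.40 in log2 units (SE 0.06, adjusted p 0.00295 by edgeR). With library totals in place of TMM no gene of this list was called lower. The 12 genes not called include Lyn at -0.04, Grb2 at -0.04 and Syk at 0.24.

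Of 16 early B-lineage regulators, 10 rose, none fell and the median was 0.59. Pax5, the factor that commits cells to the B lineage, went from 29.2, 30.2 and 30.0 CPM to 56.8, 50.2 and 55.3 CPM, a log2 fold change of 0.86 (SE 0.07, adjusted p 8.61e-05 by edgeR). Pou2af1, an octamer co-activator, rose by 0.86 (SE 0.08, adjusted p 0.000295 by edgeR). Ebf1, which is known to activate Igll1, Vpreb1 and Cd79a, rose by 0.84 (SE 0.09, adjusted p 0.000791 by edgeR). Tcf3, which encodes E proteins that bind E-boxes, was at 0.37 and did not pass (adjusted p 0.0692 by edgeR), and Irf8 was at -0.05.

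Of 9 pro-B and pre-B cell markers, 7 rose, none fell and the median was 0.72. Akap12, a scaffold protein, rose by 0.87 (SE 0.07, adjusted p 7.66e-05 by edgeR), Arl5c by 0.78 (SE 0.09, adjusted p 0.00108 by edgeR) and Cecr2 by 0.72 (SE 0.10, adjusted p 0.00316 by edgeR). Il7r, the receptor subunit for the growth factor of early B cells, was among the others that rose, while Bst1 and Arpp21 were not called. Of 14 mature B cell markers, 10 rose, none fell and the median was 0.49. Ighd, the constant region of IgD, rose by 0.58 (SE 0.07, adjusted p 0.00110 by edgeR), Cd37, a tetraspanin, by 0.36 (SE 0.06, adjusted p 0.00454 by edgeR) and Fcrl1, a B cell surface receptor, by 0.58 (SE 0.09, adjusted p 0.00530 by edgeR). The count for mature B cells was 6 with either non-radiated library 2 or radiated library 1 left out. The difference between the medians of the early and the mature lists was not tested.

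**Figure D4:**
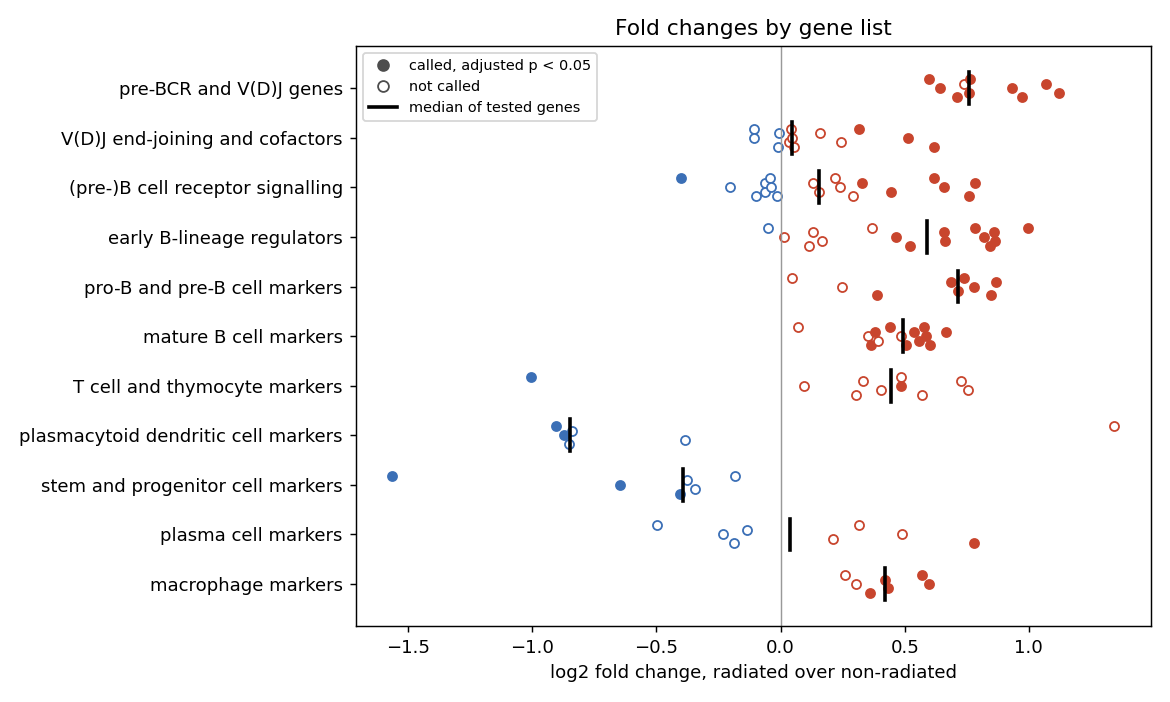
Log2 fold change, radiated over non-radiated, of every tested gene in each list except skeletal muscle. Filled points passed the test and open points did not, red is above 0 and blue below, and black bars are list medians. The 10 genes and the early B-lineage, pro-B and mature B lists lie mostly right of 0, while the plasmacytoid dendritic and progenitor lists lie mostly left of it.

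Genes of the group are also used by other cells, so their markers were read beside them. Thymocytes also use Rag1, Rag2 and Dntt. Ptcra, which encodes a chain of the pre-T cell receptor, had 0, 1 and 0 counts in the non-radiated and 0, 2 and 1 in the radiated libraries and was not tested. The 11 T cell and thymocyte markers summed to 73.9 to 80.5 CPM without and 78.0 to 87.3 CPM with radiation. Of the 10 tested, 9 had a positive log2 fold change, 7 were higher in all radiated than in all non-radiated libraries and the median was 0.44. Among them Lck, a T cell kinase, rose by 0.49 (adjusted p 0.0108 by edgeR) and Lat, an adaptor of T cells and megakaryocytes, fell from 25.8, 22.8 and 24.8 CPM to 12.0, 12.2 and 12.3 CPM (adjusted p 7.66e-05 by edgeR), and no gene of this list was at 0 in all libraries. Plasmacytoid dendritic cells can hold Dntt and Rag RNA. Their 6 markers summed to 37.2 to 39.7 CPM and then 21.8 to 29.7 CPM, with 2 called lower, Siglech and Ccr9, none called higher and a median of -0.85. The 6 stem and progenitor markers summed to 161 to 168 CPM and then 104 to 113 CPM, with 3 called lower and none higher. In both lists the sum of each radiated library was below that of each non-radiated library, while the sum of the 10 genes was above it. In the plasmacytoid list only Cox6a2 had a positive log2 fold change, 1.34 (SE 0.68, adjusted p 0.296 by edgeR). It was at 1.15, 1.52 and 1.16 CPM in the non-radiated and 1.45, 7.19 and 0.85 CPM in the radiated libraries. Radiated library 2 also had the highest sum of the skeletal muscle markers given below, and a link was not tested. With library totals in place of TMM, 0 plasmacytoid markers were called lower and 1 higher, and 1 progenitor marker was called lower.

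The 8 plasma cell markers summed to 224 to 421 CPM and then 231 to 339 CPM, with 1 called higher, Mzb1, which other B cells express too. The 7 macrophage markers summed to 744 to 789 CPM and then 931 to 1087 CPM, with 5 called higher and a median of 0.42. That count was 3 with either non-radiated library 2 or radiated library 1 left out and 2 with library totals in place of TMM. The 8 skeletal muscle markers differed most between libraries, at 174, 303 and 148 CPM in the non-radiated and 714, 2155 and 163 CPM in the radiated libraries. None of them was called, but all 8 were called higher with the replicate number as a block, with radiated library 3 left out, with library totals in place of TMM and with no filter on low counts. Radiated library 3 had about the muscle level of the non-radiated libraries and the highest sum of the 10 genes, 650 CPM. The part of any of these other cells in the values of the 10 genes was not tested.

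The 5 genes outside the group whose profile over the 6 libraries was most like the mean of the 10 were sought among 15570 tested genes that averaged 1 CPM or more. Likeness was the root mean square difference of mean-centred log2 CPM. C030037D09Rik was closest at 0.03, followed by Ebf1 at 0.04, Gm19980 at 0.05, Tubb2b, a beta-tubulin, at 0.05 and Arntl, a circadian clock factor, at 0.05. Their log2 fold changes were 0.80, 0.84, 0.89, 0.81 and 0.73. Blnk, at 0.07, was the nearest of the 10 genes themselves, although each of these is part of that mean.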

How the data were processed

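The series holds 1 table with, for each gene and each of the 6 libraries, a raw count and an RPKM value, per the file headers. The labels' protocols say that the bone was freed of muscle and homogenized, that RNA was taken up on RNeasy columns and that the library kit was stranded and for mRNA. The submitters' processing notes name bcl2fastq, STAR 2.5.2b, Subread, featureCounts and build mm10. The annotation, the strand setting and any filter are not given in the sources used here. The authors' deposited counts are whole numbers and were used as they stand. The RPKM values deposited by the authors rest on a per-library constant of 5.55 to 6.91 times the total count, whose meaning is not given, so they were not tested.

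The test was that of edgeR 4.0.16, run in R 4.3.3 (filterByExpr with minimum count 10 and minimum total 15, TMM, glmQLFit and glmQLFTest, group as the only term), with Benjamini-Hochberg adjustment over 18757 genes and a threshold of 0.05. Standard errors (SE) are the absolute log2 fold change over the square root of the F statistic, and SE of ratios come from the spread between libraries. All 10 genes passed the filter. The fit was tested on simulated data. Sequences were read with Python 3.11.15 and aligned with Biopython 1.88. Replicates of a group differed by more than sampling noise (chi-square per degree of freedom 13.0 to 448).

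The 10 genes and all lists were chosen with earlier results of these data known. Of 117 list entries all were in the table, 4 of them under an older symbol, matched by gene ID. Named were the 10 genes, in each pathway or B-lineage list up to 3 genes with the smallest p in the more frequent direction and up to 2 in the other, and the 5 genes most alike. AY036118, Col1a1, overlapping and neighbouring genes, and the genes given as examples of those not called or in other lists were named outside that rule, after their values were seen.

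Both groups carry numbers 1 to 3, and the femurs are opposite legs. Deviations from group means correlated for the same number (0.285, 0.432 and 0.272 for numbers 1, 2 and 3) and not for different numbers (-0.256 to -0.01), across 15580 genes, which are not independent. Because deviations were taken from each group's own mean, the negative values partly follow from the positive ones. By this check libraries of the same number were alike, but a shared animal cannot be told apart from other handling shared by number. The reported fit and the ratio test are unpaired, and a blocked fit was among the alternatives. The others were DESeq2 1.42.0 size factors and Wald test, library totals, no filter, a mean of at least 1 CPM, limma-voom (limma 3.58.1) and leaving out each library. Chosen after seeing the data were library totals without AY036118 and leaving out both libraries numbered 2.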

Additional observations from a re-analysis of the deposited data

How the results depend on the processing

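All 10 genes kept a positive log2 fold change under all 15 alternatives, and each of Igll1, Vpreb1, Vpreb3, Cd79a, Cd79b, Rag2, Dntt and Blnk was called under all 15. The number called was 9, with 8 to 10 over the libraries left out in turn or both numbered 2 together, and 9 with the replicate block. Rag1 was called under 13 of the 15 and Vpreb2 under 1. The 10 genes had no overlap between groups under each scaling tried. The count called higher for end joining and cofactors (3) ranged from 1 to 3 with each library left out. The count for mature B cell markers (10) was 6 with library totals alone and 6 with both libraries numbered 2 left out, and ranged from 6 to 9 with each library left out. Library totals alone moved the median of all genes to 0.19 and the calls to 854 higher and 146 lower, against 856 and 607. The replicate block gave 1034 and 636, and changed no call among the 10 genes. Causes of these shifts were not tested. Depth was lowest for Vpreb2, with 41 to 105 counts per library.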
